A study of Mus musculus with 36 samples.

Results

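The genes described here belong to the integrated stress response and the unfolded protein response of C2C12 myotubes. They are 41 genes chosen by name, and all 41 passed the filter of 1 RPM (reads scaled to library size) or more in 12 or more of the 36 libraries, among 13995 of 55416 genes that did. The RPM values printed below also carry a scaling factor for each library (TMM). A further row carrying the name Ddit3 had 0 counts in every library and was not used. The genes fall into 5 classes: 7 transcription factors, 5 sensors and kinases, 13 ATF4-type amino acid genes, 9 ER-folding genes and 7 feedback and stress effectors. C2C12 is a mouse myoblast line whose cells fuse into contracting myotubes in low-serum medium. On day 3 of differentiation the cultures received an antisense locked nucleic acid (LNA), either a negative control (control myotubes) or one against Tug1 (Tug1 KD), a long noncoding RNA. On day 4 they were left unstimulated with electrodes in the medium (Rest), or were stimulated with electrical pulses (EPS) for 3 h at 13 V and 66 Hz, with 2 ms pulses, 5 s of pulses alternating with a pause of 5 s. Stimulated cells were harvested as the pulses ended (EPS 0h) or following 3 h without pulses (EPS 3h), which gave 6 groups of 6 poly-A RNA libraries: Rest, EPS 0h and EPS 3h, each with control and with Tug1 KD.

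The integrated stress response begins with kinases that phosphorylate the translation factor eIF2. General translation then falls, while translation of the Atf4 mRNA rises, and ATF4 switches on genes for amino acid synthesis and uptake together with feedback genes that end the response. The unfolded protein response reads the state of the endoplasmic reticulum (ER) through PERK, IRE1 and ATF6. PERK is also an eIF2 kinase, whereas IRE1 (through spliced XBP1) and ATF6 raise ER chaperones and the machinery that degrades misfolded ER proteins. In muscle these pathways are known to respond to contraction, nutrient supply and mitochondrial stress. Counts per gene do not separate spliced from unspliced Xbp1, and they record neither phosphorylation nor translation, which are the main switches of ATF4, PERK and eIF2.

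The libraries held 17005079 to 24181167 counts each. Tug1 itself was lower in Tug1 KD at Rest (median 25.4 RPM against 47.8), at EPS 0h (42.2 against 67.7) and at EPS 3h (51.5 against 77), so the LNA left a part of the transcript. The libraries are wells of a clonal line from 2 independent experiments of 3 wells per group, and the labels do not say which replicate came from which. The main fit has no term for the experiment, so its p-values measure the spread between wells within and between the 2 experiments together. Replicates 1 to 3 and 4 to 6 were also fitted apart. All 10 myotube markers were measured, with a summed level of 15167.3 to 20858.8 RPM per library over the 6 groups. The 10 markers of undifferentiated or cycling myoblasts summed to 365 to 454 RPM in Rest control libraries, 327 to 401 at EPS 0h and 232 to 300 at EPS 3h, and in Tug1 KD to 295 to 359 at Rest, 290 to 341 at EPS 0h and 228 to 283 at EPS 3h. The 6 heat shock genes moved with stimulation, in control myotubes from a median sum of 10212.0 RPM at Rest to 24734.6 at EPS 0h, then 52417.9 after recovery. The myoblast markers did not move together. In control myotubes at EPS 0h, 2 were called higher and 3 lower (median log2FC -0.01), then 1 and 4 after recovery. These are 20% and 30%, then 10% and 40%, where all genes had 20.5% and 18.4%, then 26.1% and 25.9%. Id1 (log2FC -1.47, then -2.46) and Id3 (-0.80, then -2.04) fell, whereas Mki67 (0.44, then 0.41) rose, as did Myf5 at EPS 0h (1.31). The part of both lists in the results on the stress response genes was not tested. Rest cultures were harvested without a matching recovery period, so 3 h of recovery and 3 further hours in culture cannot be told apart, and in bulk RNA fewer cells with a transcript and less of it per cell cannot be told apart either.

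In Rest control myotubes the members were mostly well expressed. On a scale of RPM per kb of transcript, their median was 25.6 against 6.92 over all genes tested, and 36 of 41 lay over the all-gene median. Atf4, the transcription factor at the centre of the response, had the highest level among them (399 RPM per kb), followed by Nupr1, a small stress-induced nuclear protein (228), Slc3a2, the heavy chain of several amino acid exchangers (161), and Ddit3, which encodes CHOP (155). Herpud1 was the highest ER-folding gene at 71.8 RPM per kb. The lowest levels were those of Eif2ak3, which encodes PERK (2.35), and Vldlr, a lipoprotein receptor (2.05).

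Promoters of 40 of the members were read from GRCm39 for 300 bases, from 250 before to 50 after the annotated start of the canonical transcript. Motifs were sought on both strands. The ATF4-type response element (CARE) was taken as TGATGNAA and its core as TTGCATCA, whose reverse complement is a case of the former. The ER stress elements were ERSE (CCAAT, 9 bases of any kind, CCACG) and ERSE-II (ATTGG, 1 base, CCACG), and UPRE was TGACGTGG. The CARE core was present in 5 of 40 members (12.5%) against 85 of 13932 promoters of all genes tested (0.61%), and the wider CARE in the same 5, against 2.58% of all. They were Ddit3, Chac1, Herpud1, Pycr1 and Vldlr. ERSE was found in Pdia6 and Creld2 (0.115% of all promoters), ERSE-II in Herpud1, Hyou1 and Manf (0.0861%), and UPRE in Hyou1 (0.854%). The windows before the start of 5 genes are shown because they hold a CARE core and were called in control myotubes, higher at EPS 0h (Chac1 and Herpud1), lower at EPS 0h and EPS 3h (Pycr1) or lower at EPS 3h alone (Vldlr), or hold ER stress elements only (Hyou1), with the matches in capitals.
Chac1: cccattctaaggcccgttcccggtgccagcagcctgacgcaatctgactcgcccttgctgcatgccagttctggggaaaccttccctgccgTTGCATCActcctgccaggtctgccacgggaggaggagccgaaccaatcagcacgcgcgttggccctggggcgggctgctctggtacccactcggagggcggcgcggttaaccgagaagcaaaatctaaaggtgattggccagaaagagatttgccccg
Herpud1: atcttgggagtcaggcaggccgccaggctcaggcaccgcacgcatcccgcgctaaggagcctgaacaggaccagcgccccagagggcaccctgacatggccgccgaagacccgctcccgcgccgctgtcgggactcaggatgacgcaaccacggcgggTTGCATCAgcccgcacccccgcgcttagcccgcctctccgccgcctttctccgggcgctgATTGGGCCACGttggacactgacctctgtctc
Pycr1: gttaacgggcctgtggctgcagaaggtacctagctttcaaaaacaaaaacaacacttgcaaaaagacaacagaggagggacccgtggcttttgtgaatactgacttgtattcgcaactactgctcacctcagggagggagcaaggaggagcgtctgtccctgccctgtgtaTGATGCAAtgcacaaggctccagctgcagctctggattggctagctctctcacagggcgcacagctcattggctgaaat
Vldlr: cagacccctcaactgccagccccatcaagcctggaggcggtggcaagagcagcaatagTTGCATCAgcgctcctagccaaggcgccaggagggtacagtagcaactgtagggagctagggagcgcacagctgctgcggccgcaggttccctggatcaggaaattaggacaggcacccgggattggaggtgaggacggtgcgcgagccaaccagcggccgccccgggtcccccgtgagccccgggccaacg
Hyou1: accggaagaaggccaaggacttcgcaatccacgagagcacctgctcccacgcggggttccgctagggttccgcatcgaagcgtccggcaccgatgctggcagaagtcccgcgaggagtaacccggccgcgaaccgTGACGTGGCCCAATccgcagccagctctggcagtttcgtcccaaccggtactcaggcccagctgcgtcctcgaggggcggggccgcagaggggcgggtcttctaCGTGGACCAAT
In these sequences, each 5′ to 3′ on the strand of the gene, the CARE core lay 159 to 152 bases before the start of Chac1 (chr2:119181439-119181688 on the plus strand), 92 to 85 before that of Herpud1 (chr8:95112787-95113036 on the plus strand), 79 to 72 before that of Pycr1 (chr11:120534599-120534848 on the minus strand) and 192 to 185 before that of Vldlr (chr19:27194162-27194411 on the plus strand). Herpud1 also held an ERSE-II from 32 to 22 bases before its start. Hyou1 (chr9:44290523-44290772 on the plus strand) held an ERSE-II that overlaps its UPRE and another that ends at the base before the start. Ddit3 had its CARE core 199 to 192 bases before the start. A match is a description of these letters and not a measured binding site.

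**Figure D1:**
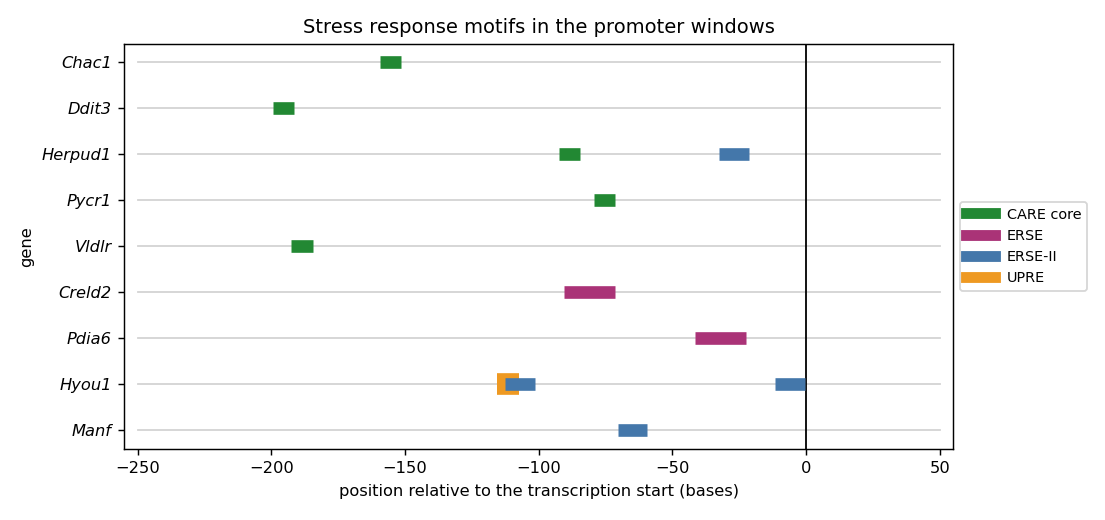
Positions of the motifs in the promoter windows of the 9 members with a match, in bases from the transcription start (vertical line at 0). Green marks the CARE core, magenta ERSE, blue ERSE-II and orange UPRE, and Herpud1 alone holds a CARE core and an ERSE-II.

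At the end of stimulation, 16 of the 41 genes had changed in control myotubes. A gene was called at a false discovery rate (FDR) under 0.05 in edgeR's quasi-likelihood test, adjusted over all 13995 genes. 13 were higher (31.7%) and 3 lower (7.32%), where 20.5% and 18.4% of all genes were called higher and lower. The median log2FC was 0.13 over the members and -0.03 over all genes. Feedback effectors and amino acid genes made up 10 of the 13 that rose, and a single ER-folding gene, Herpud1, was among them. With the replicate number as a block, which pairs the libraries here, 17 were higher and 7 lower, where the same fit called 24.4% and 25.5% of all genes, the added ones being Ddit4, Aldh18a1, Edem1 and Manf upwards and Slc7a5, Eif2ak4, Hyou1 and Pdia4 downwards. With scaling by library size alone, which moved the median log2FC of all genes from -0.03 to -0.10, 10 were higher (Psat1, Mthfd2 and Slc3a2 lost the call) and 9 lower (22%), where 16.6% and 24.9% of all genes were called, so the size of the excess of higher over lower calls depends on the scaling.

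**Figure D2:**
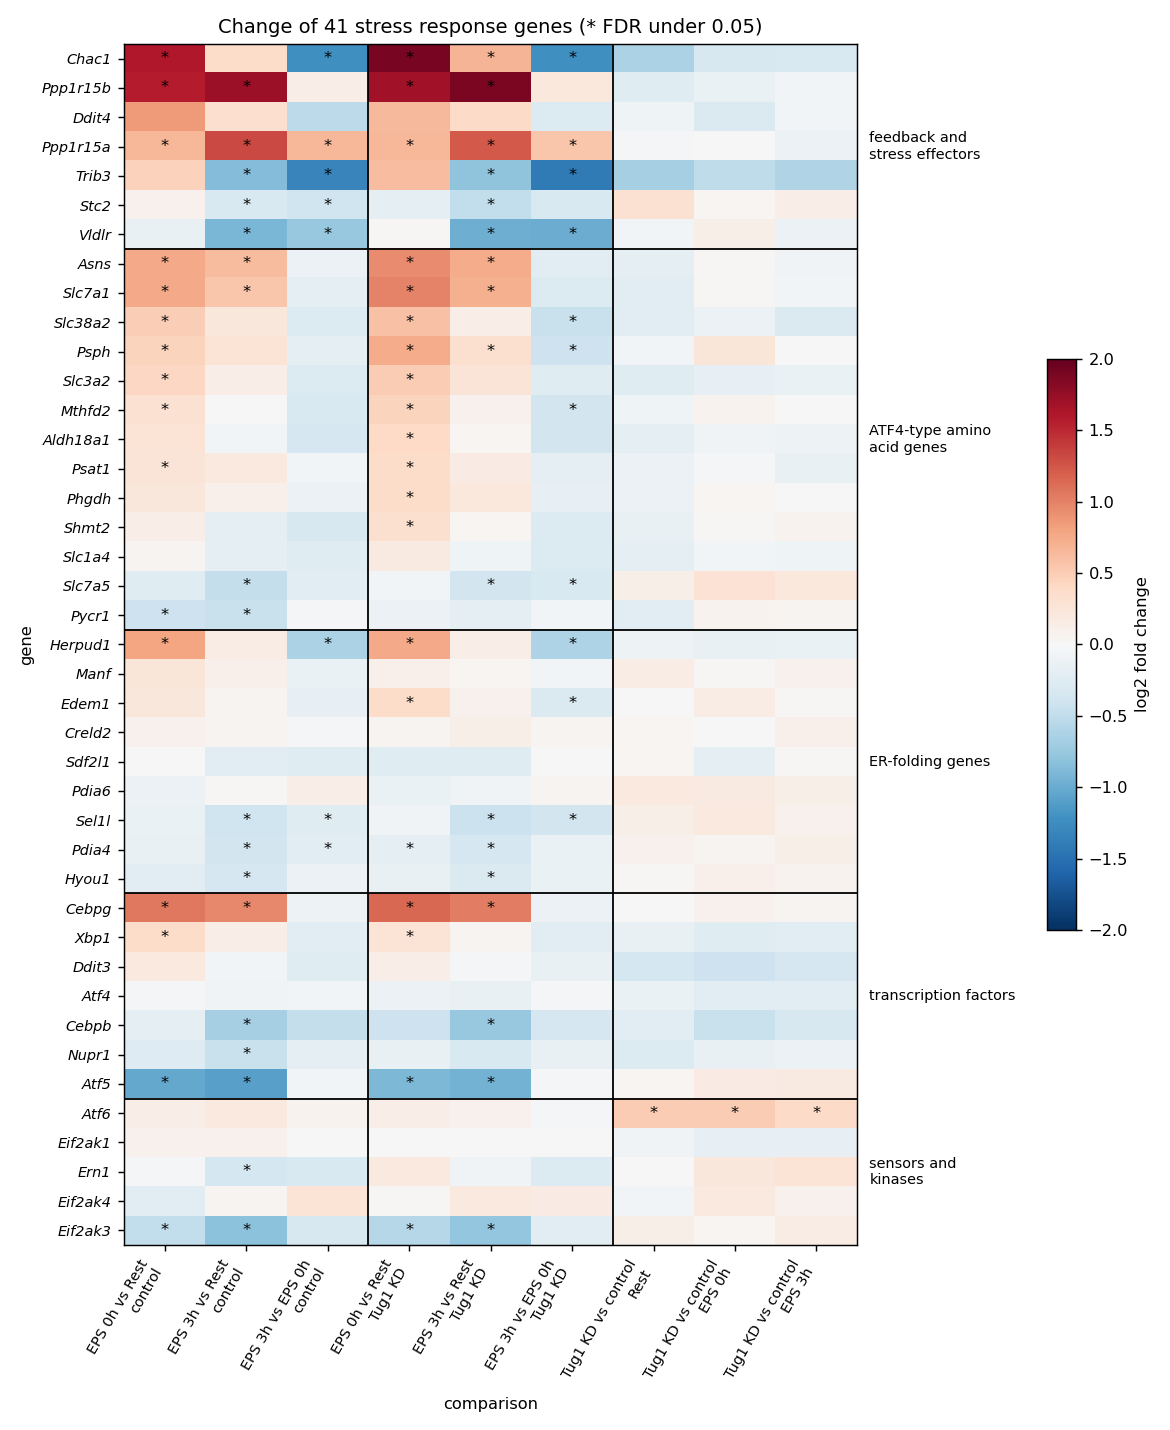
Log2 fold change (colour, red higher, blue lower) of the 41 genes (rows, by class) in the 9 pairwise comparisons (columns), with an asterisk where FDR was under 0.05. The stimulation columns hold the changes of both signs in control and Tug1 KD, whereas Atf6 alone is marked in the 3 Tug1 KD against control columns.

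Among the effectors, 3 of 7 rose (42.9%, beside 20.5% of all genes) and 0 were called lower (18.4% of all genes) at EPS 0h in control myotubes, with a median log2FC of 0.66. Limma-voom and DESeq2 also called 0 lower, and 0 were lower at an unadjusted p under 0.05. Chac1, an enzyme that degrades glutathione, had 50.6, 68.3 and 97.9 RPM as its lowest, median and highest value at Rest and 147, 188 and 320 at EPS 0h. The groups did not overlap, and the change was 3.03-fold (log2FC 1.60 ± 0.24, SE, FDR 2e-06). Ppp1r15b, the constitutive subunit that brings a phosphatase to eIF2, had 81.5, 90.5 and 104 RPM at Rest and 259, 264 and 295 at EPS 0h, again without overlap (log2FC 1.57 ± 0.148, FDR 2.02e-10). Its inducible relative Ppp1r15a (GADD34) had 129, 148 and 172 RPM at Rest and 214, 235 and 263 at EPS 0h (log2FC 0.66 ± 0.108, FDR 8.1e-06). All 3 genes were thus higher in every EPS 0h control library than in any Rest control library. Trib3, a pseudokinase that restrains ATF4, spread widely, with 64.7, 96.4 and 154 RPM at Rest and 66.3, 108 and 257 at EPS 0h, and was not called (log2FC 0.46, 95% interval -0.14 to 1.07, FDR 0.227). Ddit4, an inhibitor of mTORC1, behaved differently in the replicate sets, with a log2FC of -0.04 in replicates 1 to 3 and of 1.32 in replicates 4 to 6 (FDR 4.11e-06), and its pooled log2FC of 0.85 did not pass (FDR 0.0702). Ddit4 did pass with the replicate block (log2FC 0.62, FDR 0.0106) and with a term for the replicate set (log2FC 0.61, FDR 0.0092).

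After recovery these genes parted. In control myotubes at EPS 3h, Ppp1r15b had 172, 309 and 361 RPM (log2FC against Rest 1.71 ± 0.148, FDR 6.73e-12) and Ppp1r15a had 329, 359 and 453 RPM (log2FC 1.32 ± 0.109, FDR 2.35e-12). Every EPS 3h library stayed above every Rest library for both. Ppp1r15a was also higher at EPS 3h than at EPS 0h (log2FC 0.66 ± 0.108, FDR 2.41e-05), with no overlap. Chac1 had fallen back to 60.1, 78.3 and 146 RPM, 0.426 times its EPS 0h level (log2FC -1.23 ± 0.237, FDR 0.00024), and against Rest it was not called (log2FC 0.37, 95% interval -0.11 to 0.85), although the replicate block called it (FDR 0.0165). Trib3 was lower at EPS 3h than at EPS 0h (log2FC -1.32 ± 0.305, FDR 0.00184) and lower than at Rest, with 33.7, 62.7 and 80 RPM (log2FC -0.86 ± 0.303, FDR 0.0168). Vldlr had 12.9, 15.6 and 22.2 RPM at Rest and 5.17, 8.74 and 12.1 at EPS 3h, which did not overlap (log2FC -0.92 ± 0.228, FDR 0.000941). Stc2, which encodes the secreted glycoprotein stanniocalcin 2, was lower by less (log2FC -0.31 ± 0.123, FDR 0.0337), and that call was lost with replicates 4 to 6 alone.

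**Figure D3:**
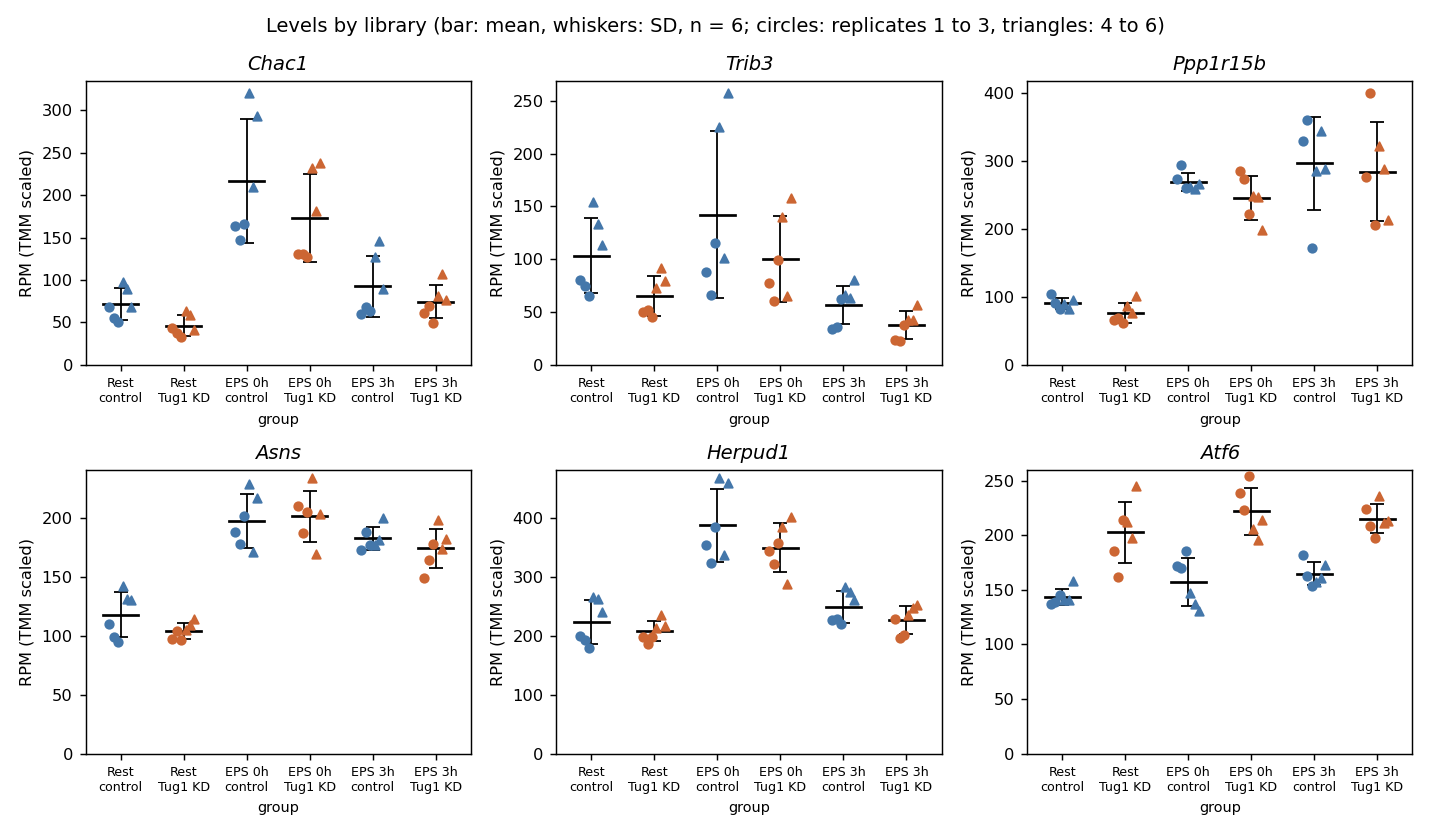
RPM of 6 genes in each library by group (points, blue control, orange Tug1 KD, circles replicates 1 to 3, triangles replicates 4 to 6), with the mean and SD of 6 libraries. Chac1 and Herpud1 peak at EPS 0h, Ppp1r15b stays high at EPS 3h, Trib3 is lowest at EPS 3h, and Atf6 is higher in Tug1 KD in all 3 conditions.

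Of the 13 amino acid genes, 7 were higher (53.8%) and 1 lower (7.69%) at EPS 0h in control myotubes, beside 20.5% and 18.4% of all genes, and their median log2FC was 0.28. Asns, which makes asparagine, had 95, 120 and 142 RPM at Rest and 171, 195 and 229 at EPS 0h (log2FC 0.75 ± 0.0926, FDR 6.8e-08). Slc7a1, a transporter of arginine and lysine, had 131, 146 and 159 RPM at Rest and 174, 262 and 296 at EPS 0h (log2FC 0.75 ± 0.148, FDR 0.000115). Slc38a2, a carrier of small neutral amino acids, had 450, 511 and 572 RPM at Rest and 619, 725 and 795 at EPS 0h (log2FC 0.49 ± 0.117, FDR 0.000979). None of these 3 genes overlapped between Rest and EPS 0h. The other 4 that rose (Psph and Psat1 of serine synthesis, Slc3a2, and Mthfd2 of mitochondrial folate metabolism) had log2FC values of 0.26 to 0.45. Replicates 1 to 3 alone lost the calls of Psph, Mthfd2 and Slc3a2 and added Aldh18a1 and Slc1a4 upwards. Replicates 4 to 6 alone lost Psat1 and Mthfd2, and limma-voom lost Psat1. The gene that fell was Pycr1, of proline synthesis, at a low level (10.1, 13.1 and 15.2 RPM at Rest, 7.51, 9.06 and 14.3 at EPS 0h, log2FC -0.41 ± 0.159, FDR 0.0391), a call lost in each replicate set alone and without the filter on low counts. Counts of higher amino acid genes ranged from 4 to 8 over the other fits, with Psat1, Mthfd2 and Slc3a2 the ones lost with scaling by library size only.

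By EPS 3h, 2 of the 13 were still higher than at Rest and 2 were lower (15.4% each way, under the 26.1% and 25.9% of all genes), with a median log2FC of 0.10. Asns had 173, 179 and 200 RPM (log2FC 0.63 ± 0.0925, FDR 4.88e-07) and Slc7a1 had 162, 221 and 269 (log2FC 0.56 ± 0.148, FDR 0.00161), both still clear of the Rest libraries. Slc7a5, the light chain that pairs with Slc3a2 to import large neutral amino acids, fell from 216, 225 and 264 RPM at Rest to 135, 164 and 203, with no overlap (log2FC -0.47 ± 0.107, FDR 0.00037). Its partner Slc3a2 had a log2FC of 0.14 at EPS 3h (FDR 0.474). Pycr1 was again lower (log2FC -0.45 ± 0.159, FDR 0.0166), a call lost with replicates 1 to 3 alone.

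At EPS 0h in control myotubes 1 of the 9 ER-folding genes was higher (11.1%, under the 20.5% of all genes), 0 were lower (18.4% of all genes) and the median log2FC was 0.00. Limma-voom gave the same counts, DESeq2 called 3 higher, and 1 member was lower at an unadjusted p under 0.05. The riser was Herpud1, an ER membrane protein of the degradation machinery, with 179, 220 and 266 RPM at Rest and 324, 369 and 468 at EPS 0h (log2FC 0.79 ± 0.108, FDR 3.81e-07), without overlap. By EPS 3h it had returned to 221, 244 and 283 RPM (log2FC against EPS 0h -0.64 ± 0.108, FDR 3.63e-05, against Rest 0.15, FDR 0.238, with 0.26 and FDR 0.0267 in replicates 1 to 3 alone). At EPS 3h, 3 of the 9 were lower than at Rest (33.3%, near the 25.9% of all genes). Sel1l, the adaptor of the HRD1 ubiquitin ligase, went from 80.6, 96.4 and 111 RPM to 60.9, 74.2 and 82.1 (log2FC -0.40 ± 0.0901, FDR 0.000346). Pdia4, a disulfide isomerase, went from 79.8, 84.7 and 89.9 RPM to 60.2, 66.7 and 69.5 (log2FC -0.36 ± 0.0663, FDR 1.94e-05), and its groups did not overlap. Hyou1, a large ER chaperone, had a log2FC of -0.34 ± 0.122 (FDR 0.0189). The remaining ER-folding genes (Edem1, Pdia6, Sdf2l1, Creld2 and Manf) were not called at either time in control myotubes. The replicate block, however, called 3 of the 9 higher at EPS 0h (Herpud1, Edem1 and Manf) and 2 lower (Hyou1 and Pdia4). It called 24.4% and 25.5% of all genes.

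The contrast of these classes was also read per library, as the median log2 change of each class from the Rest control mean. Amino acid genes stood at 0.06 to 0.54 in the EPS 0h control libraries and ER-folding genes at -0.09 to 0.06. The difference, amino acid minus ER-folding, had a lowest, median and highest value of -0.18, 0.00 and 0.13 in Rest control, 0.09, 0.34 and 0.48 in EPS 0h control, and -0.23, 0.05 and 0.41 in EPS 3h control libraries. In Tug1 KD it was -0.40, -0.24 and 0.04 at Rest, -0.18, 0.22 and 0.43 at EPS 0h, then -0.36, 0.00 and 0.27 at EPS 3h. The median difference was highest at EPS 0h with either LNA. In control 1 of the 6 EPS 0h libraries lay within the range of Rest, whereas in Tug1 KD replicates 2 and 5 (-0.14 and -0.18) lay well within it. The same replicates stood at -0.40 and -0.19 at Rest. Read by replicate number, the difference was higher at EPS 0h than at Rest in every pair with either LNA. Replicate 5 of Tug1 KD hardly moved. Within replicates 1 to 3 the median difference in control myotubes went from -0.05 at Rest to 0.25 at EPS 0h, and within replicates 4 to 6 from 0.03 to 0.47. These are descriptions of gene classes and carry no test. Scaling by library size alone lowered the median log2FC of all genes by 0.168 at EPS 3h against Rest in control myotubes and turned the amino acid median there from 0.10 to -0.06 and the ER-folding median from 0.02 to -0.15. Relative to the median of all genes, the class medians were 0.13 and 0.04 under either scaling.

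**Figure D4:**
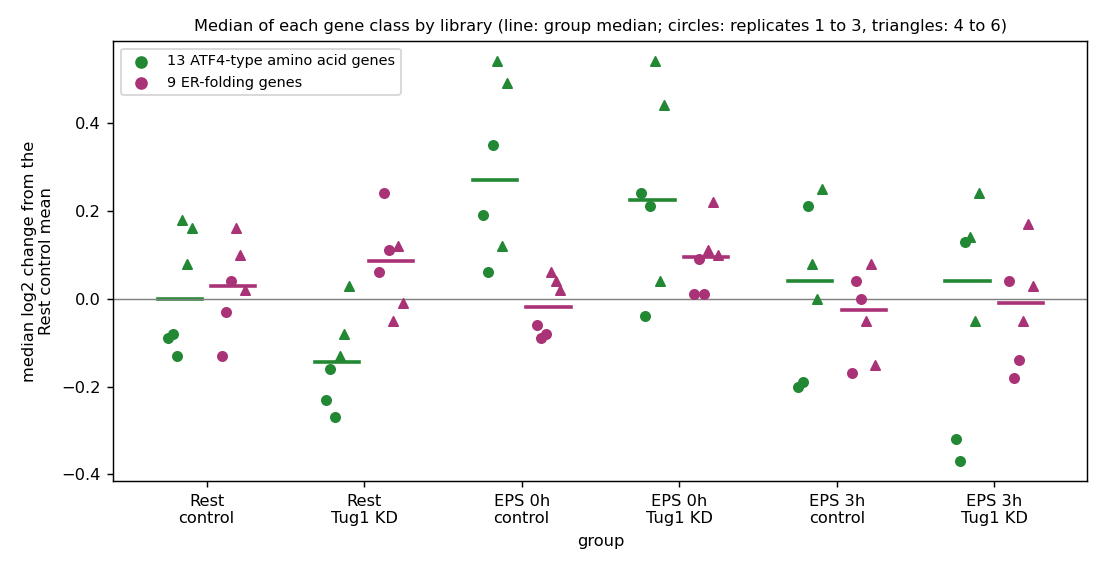
Median log2 change from the Rest control mean in each library for the 13 ATF4-type amino acid genes (green) and the 9 ER-folding genes (magenta), by group, with the group median as a line. In control the classes stand furthest apart at EPS 0h, at 0.06 to 0.54 and -0.09 to 0.06, whereas in Tug1 KD the group medians are -0.15 and 0.09 at Rest and 0.22 and 0.10 at EPS 0h.

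Among the 7 transcription factors, Atf4 mRNA was not called in any comparison. It had 649, 699 and 746 RPM in Rest control libraries, 554, 667 and 831 at EPS 0h (log2FC -0.02, 95% interval -0.31 to 0.27) and 494, 694 and 794 at EPS 3h (log2FC -0.07, 95% interval -0.36 to 0.22). Ddit3 was not called either, with log2FC values of 0.20 and -0.05. Its exons overlap those of Mars1 on the opposite strand over 64.1% of their length in the annotation used here, and the strand setting of the counting is not given in the sources used here. Exons of Eif2ak1 (25.6%, with Aimp2), Xbp1 (22%, with Ccdc117) and Cebpb (20.7%, with Peds1) overlap a tested gene on the opposite strand, and those of Manf overlap Rbm15b on the same strand (32.6%), so the values of these genes are uncertain too. Cebpg, a dimer partner of ATF4, was the clearest riser, from 52.3, 67.2 and 80.5 RPM at Rest to 119, 133 and 155 at EPS 0h (log2FC 1.05 ± 0.125, FDR 2.8e-08) and 87.2, 129 and 151 at EPS 3h (log2FC 0.96 ± 0.124, FDR 5.85e-08), never overlapping with Rest. Xbp1 rose at EPS 0h (log2FC 0.36 ± 0.108, FDR 0.00886), a call lost with replicates 4 to 6 alone, and at EPS 3h its log2FC was 0.13 (FDR 0.345), with 0.40 (FDR 0.00589) for replicates 1 to 3 and -0.08 for the other set. Atf5, which like Atf4 is regulated in translation, fell from 110, 131 and 150 RPM to 48.7, 61.1 and 85.9 at EPS 0h (log2FC -1.02 ± 0.228, FDR 0.000527) and 34.6, 55.7 and 107 at EPS 3h (log2FC -1.08 ± 0.229, FDR 0.000158), with no overlap in both cases. Cebpb and Nupr1 were called lower at EPS 3h (log2FC -0.66, FDR 0.0172, and -0.45, FDR 0.00701), and their changes between EPS 0h and EPS 3h did not pass the test.

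Of the 5 sensors and kinases in control myotubes, 0 were called higher and 1 lower at EPS 0h, then 0 and 2 after recovery, where 20.5% and 18.4%, then 26.1% and 25.9% of all genes were called. No member of this class was higher by limma-voom either, and 0 were higher at an unadjusted p under 0.05 at EPS 0h and 1 at EPS 3h, which DESeq2 called. Eif2ak3 (PERK), at a low level, went from 9.3, 10.1 and 13.2 RPM at Rest to 5.8, 6.99 and 10.6 at EPS 0h (log2FC -0.50 ± 0.175, FDR 0.0221) and 4.71, 5.62 and 9.46 at EPS 3h (log2FC -0.82 ± 0.177, FDR 0.000185), with overlap at the edges. The call at EPS 0h was lost with replicates 4 to 6 alone. Ern1 (IRE1) was lower at EPS 3h (log2FC -0.35 ± 0.147, FDR 0.0455), a call that DESeq2 and replicates 4 to 6 alone did not make. Eif2ak1 and Eif2ak4, the kinases HRI and GCN2, and Atf6 were not called. The replicate block, however, called Eif2ak4 lower at EPS 0h (beside 25.5% of all genes) and Atf6 higher at EPS 3h (beside 29.6%).

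In all, 5 members were higher (12.2%) and 13 lower (31.7%) when control myotubes at EPS 3h were set against Rest, beside 26.1% and 25.9% of all genes. With the replicate block 9 were higher, adding Atf6, Chac1, Psat1 and Psph, and 13 lower, beside 29.6% and 31.6% of all genes in that fit. From EPS 0h to EPS 3h, control myotubes had 1 member higher and 7 lower, where 9.67% and 6.88% of all genes were called. The replicate block gave 2 higher and 15 lower (36.6%), where it called 13.3% and 11.9% of all genes, and a term for the replicate set gave 12 lower (29.3%, beside 10.9% of all genes). The correlation between same-numbered libraries was over 0.1 in 5 of the 6 pairs, 1 short of what was required to treat them as paired. The 7 were Trib3, Chac1, Vldlr, Herpud1, Stc2, Sel1l and Pdia4. Sel1l and Pdia4 lost the call without the filter on low counts and with replicates 4 to 6 alone. Stc2 and Pdia4 (FDR 0.158) lost it with replicates 1 to 3 alone. All 13 amino acid genes had a negative log2FC in this comparison (-0.34 to -0.04), yet 0 were called by edgeR or limma-voom without a term for the replicates, 5 were lower at an unadjusted p under 0.05 and DESeq2 called 1. The replicate block called 6 of the 13 lower (Shmt2, Mthfd2, Aldh18a1, Slc7a5, Slc3a2 and Slc1a4) and the set term 4. With scaling by library size alone 14 members were called lower (34.1%, beside 12.5% of all genes in that fit), 5 of them amino acid genes.

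Tug1 KD changed few of these genes. At Rest 1 of 41 was higher and 0 lower (all genes 5.54% and 4.47%), at EPS 0h 1 and 0 (8.25% and 6.07%), and at EPS 3h 1 and 0 (6.38% and 5.11%). The gene was Atf6 each time, the ER-anchored transcription factor that is cut and released when misfolded proteins build up. Limma-voom and DESeq2 also found 0 lower, and 3, 2 and 3 members were lower at an unadjusted p under 0.05. Atf6 had 137, 141 and 158 RPM in Rest control and 162, 205 and 245 in Rest Tug1 KD libraries (log2FC 0.50 ± 0.0877, FDR 0.000121). At EPS 0h it had 131, 159 and 186 against 196, 219 and 254 RPM (log2FC 0.50 ± 0.0877, FDR 9.51e-05), and at EPS 3h 154, 162 and 182 against 198, 212 and 236 RPM (log2FC 0.39 ± 0.0877, FDR 0.00253). The groups overlapped in none of the 3 conditions. The log2FC was 0.41, 0.46 and 0.34 in replicates 1 to 3 and 0.57, 0.57 and 0.43 in replicates 4 to 6, and with replicates 1 to 3 alone the call at EPS 3h was lost.

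Trib3 and Chac1 were the members with the most negative differences at Rest. Trib3 had 64.7, 96.4 and 154 RPM in control and 45.6, 62.4 and 91.9 in Tug1 KD at Rest (log2FC -0.66, 95% interval -1.27 to -0.05, FDR 0.187), -0.51 at EPS 0h (-1.12 to 0.10) and -0.60 at EPS 3h (-1.22 to 0.02). Chac1 had 50.6, 68.3 and 97.9 against 32.7, 42.3 and 63.8 RPM at Rest (log2FC -0.63, 95% interval -1.11 to -0.15, FDR 0.0933), with -0.32 at EPS 0h and -0.31 at EPS 3h. The groups overlapped, and neither gene passed the test without a term for the replicates. At Rest both passed with a term for the replicate set (Chac1 FDR 0.000452, Trib3 FDR 0.0181) and with the replicate block (Chac1 FDR 0.000229, Trib3 FDR 0.00592), as did Trib3 at EPS 3h with the set term (FDR 0.0264). Within replicate sets Chac1 at Rest also passed, with a log2FC of -0.61 in replicates 1 to 3 (FDR 0.0106) and -0.64 in replicates 4 to 6 (FDR 0.0364). Libraries of the same replicate number deviated together between Tug1 KD and control at EPS 0h and EPS 3h, and the replicate block then called 2 higher and 2 lower at EPS 0h (adding Slc7a5 upwards and Ddit3, FDR 0.0116, and Chac1, FDR 0.0465, downwards) and 3 higher and 1 lower at EPS 3h (adding Slc7a5 and Ern1 upwards and Trib3, FDR 0.00983, downwards). In these fits 13.1% and 11.2% of all genes were called at EPS 0h, then 10.8% and 9.75% after recovery, so the shares of the members were lower. At EPS 3h Ddit3 passed within replicates 1 to 3 (log2FC -0.66, FDR 0.0426), whereas replicates 4 to 6 gave 0.03. At Rest 5 of the 6 same-numbered pairs correlated over 0.1, 1 short of what was required to treat the libraries as paired. The myoblast markers leaned lower in Tug1 KD as well, and 1 of 10 was called lower in each condition. At Rest 9 of 10 had a negative log2FC (median -0.27), and the medians at EPS 0h and EPS 3h were -0.25 and -0.21. Their summed level at Rest did not overlap between Tug1 KD and control, with Id1 at a mean of 37.6 against 61.2 RPM and Id3 at 70.9 against 103. All 6 heat shock genes had a negative log2FC at Rest (median -0.21), with 0 called and a median sum of 8726.8 against 10212.0 RPM. Their median was 0.02 at EPS 0h and at EPS 3h. The part of both lists in the differences of Trib3 and Chac1 was not tested. Of the other key genes, Asns had KD log2FC values of -0.18, 0.03 and -0.07, Herpud1 -0.10, -0.15 and -0.13, and Xbp1 -0.15, -0.24 and -0.22 at Rest, EPS 0h and EPS 3h, none called.

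Members also moved with EPS in Tug1 KD myotubes. At EPS 0h 17 were higher and 3 lower than at Rest (all genes 24.4% and 21.2%), and at EPS 3h 7 were higher and 10 lower (26.2% and 25.9%). Chac1 had 32.7, 42.3 and 63.8 RPM at Rest and 127, 156 and 238 at EPS 0h (log2FC 1.90 ± 0.243, FDR 7.65e-08), and 49.7, 73.1 and 107 at EPS 3h (log2FC 0.68 ± 0.237, FDR 0.0153, a call lost with scaling by library size and without the filter on low counts). Ppp1r15b (log2FC 1.68 at EPS 0h and 1.89 at EPS 3h), Cebpg (1.15 and 1.03), Asns (0.95 and 0.74) and Slc7a1 (0.99 and 0.71) were called at both times. Of the amino acid genes 10 of 13 were higher at EPS 0h and 0 lower (median log2FC 0.40), a count of 5 to 11 over the other fits, with 0 lower by limma-voom, DESeq2 and at an unadjusted p under 0.05. Of the ER-folding genes 2 were higher (Herpud1, 0.75, and Edem1, 0.37) and 1 lower (Pdia4, -0.20). At EPS 0h the replicate block called 21 higher (51.2%) and 5 lower (12.2%), with Cebpb and Hyou1 added to those lower. It called 27.9% and 29% of all genes. With replicates 4 to 6 alone 8 calls were lost and 2 gained. Those lost were Atf5 (log2FC -0.90), Xbp1, Edem1, Pdia4 and the amino acid genes Psat1, Mthfd2, Aldh18a1 and Slc38a2. With replicates 1 to 3 alone 2 were lost, Phgdh and Shmt2, and 8 gained. At EPS 3h the largest falls were those of Vldlr (-0.98), Atf5 (-0.94), Trib3 (-0.80), Eif2ak3 (-0.78) and Cebpb (-0.76).

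Between EPS 0h and EPS 3h in Tug1 KD myotubes 1 member was higher (Ppp1r15a, log2FC 0.56 ± 0.108) and 10 were lower, where 8.59% and 7.13% of all genes were called. Trib3 (-1.41), Chac1 (-1.22), Vldlr and Herpud1 (-0.62) fell most and none of the 4 overlapped between the times. The amino acid genes Slc38a2 (-0.45), Psph (-0.42), Mthfd2 (-0.37) and Slc7a5 (-0.30) were among the 10. Psph lost its call in each replicate set alone (FDR 0.0612 and 0.183), as did Edem1, Slc38a2 lost it with replicates 1 to 3 (FDR 0.0745), and Mthfd2 (FDR 0.383) and Sel1l (FDR 0.0617) with replicates 4 to 6. The replicate block, which pairs these libraries, called 17 lower (41.5%, beside 12.3% of all genes), adding Asns, Shmt2, Aldh18a1, Slc3a2, Slc1a4, Ern1 and Stc2.

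The difference between the responses of Tug1 KD and control myotubes was tested as an interaction term in the same fit. At EPS 0h 0 members passed in either direction, as did 0% of all genes in both directions, and at EPS 3h 0 members passed, beside 0.00715% of all genes higher and 0% lower. EdgeR, limma-voom and DESeq2 each called 0 members at both times, and 0 members had an unadjusted p under 0.05. For Chac1 the interaction was 0.31 on the log2 scale at EPS 0h (95% interval -0.37 to 0.98) and 0.32 at EPS 3h (-0.36 to 0.99). For Asns it was 0.20 (-0.06 to 0.47) and 0.11 (-0.16 to 0.37), and for Atf6 -0.00 (-0.25 to 0.25) and -0.11 (-0.36 to 0.14). The intervals leave room for differences of these sizes, and the larger number of called amino acid genes in Tug1 KD is not a tested difference between the LNAs. All 13 amino acid genes had a positive interaction at EPS 0h (median 0.16, from 0.08 to 0.29) and 11 at EPS 3h (median 0.10). Over all 13995 genes, 7345 were positive at EPS 0h and 7003 at EPS 3h. At Rest 12 of the 13 had a negative log2FC for Tug1 KD (median -0.18), and the Rest libraries enter both interactions. These signs were not tested.

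Other genes of the same pathways give the surroundings of these results. Of 18 further ER chaperones and folding enzymes 3 were higher and 0 lower at EPS 0h in control myotubes, with 7 higher and 2 lower at EPS 3h. These are 16.7% and 0%, then 38.9% and 11.1%, where all genes had 20.5% and 18.4%, then 26.1% and 25.9%. Dnajc3, a PERK inhibitor of the ER lumen (0.49 and 0.53 on the log2 scale), Canx, the lectin chaperone calnexin (0.28 at EPS 0h), and Dnajb9, an ER co-chaperone (0.60 at EPS 3h), rose most, and Txndc11 (-0.32) and Cnpy2 (-0.29) fell at EPS 3h. Of 24 genes of ER-associated degradation and translocation 5 were higher and 1 lower at EPS 0h, with 10 higher and 2 lower at EPS 3h. The share higher at EPS 0h (20.8%) was that of all genes (20.5%), and at EPS 3h it was 41.7% beside 26.1%. Edem3 (0.57 and 0.74) and Ube2j1 (0.43 at EPS 0h) and Sec62 (0.60 at EPS 3h) were higher, and Syvn1, which encodes HRD1, was lower at both times (-0.28 and -0.38). Edem2 was lower at EPS 3h (-0.57).

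Of 18 other ATF4 targets tested, 7 were higher and 3 lower at EPS 0h (median log2FC 0.39) and 5 and 4 at EPS 3h (median -0.02), or 38.9% and 16.7%, then 27.8% and 22.2%. Among all genes 20.5% and 18.4%, then 26.1% and 25.9% were called, so the shares after recovery were near those of all genes. Atf3, a transcription factor of stress (1.36 and 1.59), and Cth, which makes cysteine (1.07 and 0.97), rose at both times, whereas Bbc3, a promoter of apoptosis (-1.35 and -1.55), and Slc6a9, a glycine transporter (-0.57 and -0.97), fell. The 20 cytosolic aminoacyl-tRNA synthetases, which load amino acids onto tRNAs, had 6 higher and 0 lower at EPS 0h, then 9 higher and 1 lower at EPS 3h (30% and 0%, then 45% and 5%). Tars (0.55) and Iars (0.53) led at EPS 0h, and Rars (0.80) and Nars (0.57) at EPS 3h, where Mars1 fell (-0.29). Of 23 genes of the eIF2 machinery and signalling tested, 3 were higher and 2 lower at EPS 0h, then 5 higher and 6 lower at EPS 3h. Their shares of 13% and 8.7%, then 21.7% and 26.1%, were below or near those of all genes. Eif2s2, the beta subunit of eIF2, rose at both times (0.64 and 1.66), and Mbtps1, the protease that cuts ATF6, fell at both (-0.43 and -0.73). Nck1 (0.49) was higher and Dele1 (-0.28) lower at EPS 0h, and Map3k5 (0.75) was higher and Creb3l1 (-0.50) lower at EPS 3h. Counts of 0 in these lists were also 0 in limma-voom and DESeq2, with 1 chaperone lower at an unadjusted p under 0.05.

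In Tug1 KD against control, 3 genes of these lists stood out in all 3 conditions, chosen after their values were seen. Vcp, the ATPase that pulls proteins out of the ER, was higher at Rest, EPS 0h and EPS 3h (log2FC 0.65, 0.63 and 0.50, FDR at most 3.53e-06). Fgf21, a secreted ATF4 target, was lower (-0.71, -0.57 and -0.57, FDR 0.0065, 0.0265 and 0.0322). Eif2b4, a subunit of the exchange factor of eIF2, was lower too (-0.36, -0.51 and -0.48, FDR 0.00898, 0.000225 and 0.000507). Their lists as a whole had other medians. For the degradation and translocation genes these were 0.09, 0.05 and 0.00, and for the eIF2 genes 0.00, 0.04 and 0.00. The 18 other ATF4 targets had -0.09, -0.01 and 0.07, with 5, 9 and 11 of them positive. Of these 18, 0 were called higher in each condition, beside 5.54%, 8.25% and 6.38% of all genes. At Rest 3 were called lower (16.7%, beside 4.47% of all genes). At EPS 0h and EPS 3h 1 was lower each time (5.56%, beside 6.07% and 5.11%). Limma-voom and DESeq2 gave the same counts.

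Every member called in a comparison had the same sign of log2FC in replicates 1 to 3 and in replicates 4 to 6. This held for 16 of 16 at EPS 0h and 18 of 18 at EPS 3h in control myotubes. In Tug1 KD myotubes it held for 20 of 20 and 17 of 17. The calls were made on the same libraries, so shared signs largely follow from that choice and are not independent support. At EPS 0h in control, replicates 1 to 3 alone lost 4 of the 16 calls and gained 7 others. Replicates 4 to 6 alone lost 5 and gained 3.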

How the data were processed

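RNA was measured in 36 libraries, 6 per group. The authors checked and trimmed reads with FastQC 0.11.7 and fastp 0.14.1, aligned them with STAR 2.5 to GRCm39 and deposited counts per gene, without normalization. The counting tool and its strand setting are not given in the sources used here, and the libraries were stranded. Genes with an identifier but no name (1492) hold 0.0327% of the counts and stayed in the totals.

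Genes at 1 RPM or more in 12 or more libraries were tested with edgeR 4.0.16 in R 4.3.3 (TMM, robust quasi-likelihood fit to all 6 groups, Benjamini-Hochberg FDR over 13995 genes). RPM values printed are TMM scaled. Limma 3.58.1 (voom, the method of the study) and DESeq2 1.42.0 were alternatives, besides other scalings, filters, a replicate block, a term for the replicate set, each set alone and a stricter threshold. The fits were tested on simulated data. Libraries of a group differed by more than counting error.

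Libraries with the same replicate number deviated together (every pairwise correlation over 0.1) for Tug1 KD against control at EPS 0h and EPS 3h, for EPS 0h and EPS 3h against Rest in control, and for EPS 0h against Rest and EPS 3h against EPS 0h in Tug1 KD. In the other comparisons 4 or 5 of the 6 pairs did, so the libraries were not treated as paired there. The main fit used no pairing in any comparison, and the replicate block was an alternative fit to all of them. The replicate sets follow the numbers, since the labels name no experiment.

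Promoters and transcript lengths came from GRCm39 with GENCODE vM39, which holds 13946 of the 13995 genes (99.6%) and all 41 members. The promoter of 1 member is not reported here. Named were, per comparison, up to 3 largest rises and falls of each class past FDR 0.05, and Atf4, Ddit3, Xbp1, Asns, Herpud1 and Chac1 always. Ddit4, Trib3 and Fgf21, Vcp and Eif2b4 in Tug1 KD were added after their values were seen. The members and lists were chosen with earlier results of these data known.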

Additional observations from a re-analysis of the deposited data

Results flagged for a closer look

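In 8 of 246 sets of 6 libraries (41 genes in 6 groups) the highest or lowest library stood apart from the others by Dixon's criterion, which chance alone meets in about 1 in 20 sets. In Rest control, replicate 6 was the highest for Atf6 (158 RPM, the others 137 to 145), Slc7a5 (264 RPM, the others 216 to 226) and Ern1 (75.4 RPM, the others 50.9 to 57.3). In EPS 3h control, Slc38a2 was lowest in replicate 3 (418 RPM, the others 583 to 656) and Eif2ak3 highest in replicate 5 (9.46 RPM, the others 4.71 to 5.93). In Tug1 KD, replicate 5 was the highest for Xbp1 at Rest (146 RPM, the others 106 to 121) and for Vldlr at EPS 3h (11.2 RPM, the others 6.5 to 8.2). Creld2 was highest in replicate 2 of EPS 0h control (42.5 RPM, the others 36.2 to 38.2).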

How the results depend on the processing

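Of 124 values of single genes checked, 80 were called, and none of these changed sign under any alternative. 72 kept their call under every fit on all libraries, 8 lost it with replicates 1 to 3 alone and 20 with replicates 4 to 6 alone. Each set has 3 libraries a group. These are the named values, mostly the largest changes of each class, so they do not stand for every called member. Phgdh and Shmt2, not among them, lost their calls at EPS 0h in Tug1 KD with limma-voom. The cause of the changes below was not tested.

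Counts of members that moved by over 1.5 times follow. Except for the stricter threshold, the share of all genes called in the same fit stands in brackets or above. DESeq2 called 2 higher in Tug1 KD at Rest (6.34%) and 2 at EPS 0h (8.87%). The replicate block gave, for Tug1 KD, 2 higher and 3 lower at Rest (9.1% and 8.12%), where 5 of the 6 pairs correlated over 0.1. For Tug1 KD it also gave 2 and 2 at EPS 0h, then 3 and 1 at EPS 3h. It gave 7 lower at EPS 0h and 9 higher at EPS 3h against Rest in control, 5 lower at EPS 0h in Tug1 KD, 2 higher and 15 lower between the EPS times in control and 17 lower in Tug1 KD, and it changed no other count by that much. A term for the replicate set gave, for Tug1 KD, 2 lower at Rest (7.2%), 2 higher at EPS 0h (12.3%) and 1 lower at EPS 3h (8.82%). Against Rest it gave 5 lower at EPS 0h in control (24.3%) and 5 in Tug1 KD (27.9%). Between the EPS times it gave 12 lower in control. Replicates 1 to 3 alone gave, for Tug1 KD, 1 lower at Rest (2.9%), then 0 higher (3.84%) and 1 lower (2.25%) at EPS 3h. In control they gave 5 lower at EPS 0h (20.1%) and 9 higher at EPS 3h (25.3%) against Rest. Within Tug1 KD they gave 6 lower at EPS 0h (26.5%). Replicates 4 to 6 alone gave, for Tug1 KD, 1 lower at Rest (6.9%), 3 higher (10.2%) and 1 lower (6.44%) at EPS 0h and 1 lower at EPS 3h (5.08%). Within Tug1 KD they gave 6 lower at EPS 3h against Rest (22%) and 6 against EPS 0h (5.72%). Library size alone gave 9 lower at EPS 0h in control (24.9%), 14 lower between the EPS times in control (12.5%) and 16 in Tug1 KD (12.4%). Without the filter 11 were higher at EPS 0h in Tug1 KD (11.5%). FDR under 0.01 with an absolute log2FC over 1 left 0 for Tug1 KD in each condition, 3 higher and 1 lower at EPS 0h, then 2 and 1 at EPS 3h in control, 3 and 0 at both times in Tug1 KD, and between the EPS times 0 and 2 in control and 0 and 3 in Tug1 KD.

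Genes that were not called changed sign as follows (log2FC). With replicates 1 to 3 these were Xbp1 0.06 and Herpud1 0.03 for Tug1 KD at Rest, Atf4 0.04 between the EPS times and Ddit4 -0.04 at EPS 0h in control. With replicates 4 to 6 they were Asns -0.03 and Ddit3 0.03 for Tug1 KD at EPS 0h and EPS 3h, Atf4 0.10 and Xbp1 -0.08 at EPS 0h and EPS 3h in control, Atf4 0.11 at EPS 0h in Tug1 KD, and Atf4 0.05, Ddit3 0.17 and Xbp1 -0.10 at EPS 3h in Tug1 KD. With library size alone they were Asns -0.01 for Tug1 KD at EPS 0h, Xbp1 -0.04 and Herpud1 -0.01 at EPS 3h in control, and Xbp1 -0.11 and Herpud1 -0.04 in Tug1 KD. At EPS 3h in Tug1 KD, Xbp1 was at -0.09 and Herpud1 at -0.02 without the filter, Xbp1 at -0.01 with at least 10 counts in 6 libraries, and Ddit3 at 0.00 in DESeq2.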
